A study of Mus musculus with 15 samples.

Results

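Cathepsins and the inhibitors of cysteine proteases were followed as 10 genes of the 22180 with a name on the array, each found by its symbol among probe sets that carry a single symbol. They are the cysteine cathepsins Ctsb, Ctsc, Ctsh, Ctsk, Ctsl, Ctss and Ctsz, the aspartic protease Ctsd, and the inhibitors Cst3 and Stfa2l1. All 10 were measured, on 11 probe sets, since Cst3 has a pair of them, of which the mean was used. The genes were chosen with earlier results of these data known.

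The study ligated the left common carotid artery of female C57Bl/6J mice of 21 to 22 weeks, Has3-deficient or wildtype, and profiled ligated and non-ligated carotid arteries 5 days after surgery. The groups were Has3-deficient ligated (n = 3), Has3-deficient non-ligated (n = 4), wildtype ligated (n = 4) and wildtype non-ligated (n = 4). Has3 encodes a synthase of hyaluronan, a sugar polymer of the matrix, and the labels do not say how its deletion was made and do not tie each sample to an animal of its own. The p-values therefore reflect spread among arrays, which may be technical. The Has3 probe set did not mark the genotype: its difference, Has3-deficient minus wildtype, was -0.20 ± 0.16 log2 units (± standard error) in ligated and 0.09 ± 0.14 in non-ligated arteries (neither passed). Where its probes lie relative to the deletion is not known, and the genotypes are as labelled. Of the 8 non-ligated arrays 5 were high in neuron or fat markers (a mean over 1 log2 unit), 3 of them Has3-deficient and 2 wildtype. Below, a level is a log2 value relative to the median of that probe set over the 15 arrays, because the deposited values were centred in this way. Absolute levels and comparisons of level between genes are therefore lost, as is any check of whether a marker is present at all. Differences between arrays are kept.

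Cathepsins are proteases that mostly work in the acid lysosome, where they break down proteins taken up or turned over by the cell. Some are also secreted, and Ctss, Ctsk and Ctsl can cut elastin and collagen, which makes them enzymes of interest in the injured artery wall, where macrophages and smooth muscle cells are known sources. Cystatins and stefins are small proteins that block the active site of cysteine cathepsins, cystatins mainly outside the cell and stefins mainly in the cytosol. They do not inhibit Ctsd, which uses a different catalytic mechanism.

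Ligation raised all 8 of the cathepsins followed and the stefin Stfa2l1 in both genotypes, while cystatin C (Cst3) did not pass in either. Since the 10 genes were chosen with earlier results of these data known, their share does not describe the family. Other cathepsins, given below, rose only in part, and Ctsf fell in both genotypes and Ctso in wildtype arteries alone. In Has3-deficient arteries 9 of 10 genes rose, where 10.2% of all genes tested rose, 8.08% fell and 18.3% changed either way, and in wildtype arteries 9 of 10 rose, where 13.2% of all genes rose, 14.6% fell and 27.8% changed (limma over all genes, Benjamini-Hochberg adjusted p under 0.05). None of the 10 fell in either. Without the 5 arrays high in neuron or fat markers 9 of 10 rose in each genotype as well, with 1 non-ligated array left in the Has3-deficient group. The median change of the 10 genes was 1.28 log2 units in Has3-deficient and 1.31 in wildtype arteries, against -0.03 and 0.0055 over all genes. The same 9 genes had no overlap between ligated and non-ligated arrays in either genotype, a pattern that 13% of all genes showed upward and 13.4% downward in Has3-deficient arteries (26.3% in all), and 14% upward and 16% downward in wildtype ones (30% in all). The changes ranged from 0.30 to 5.17 log2 units, and the plot of every array shows this division.

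**Figure D1:**
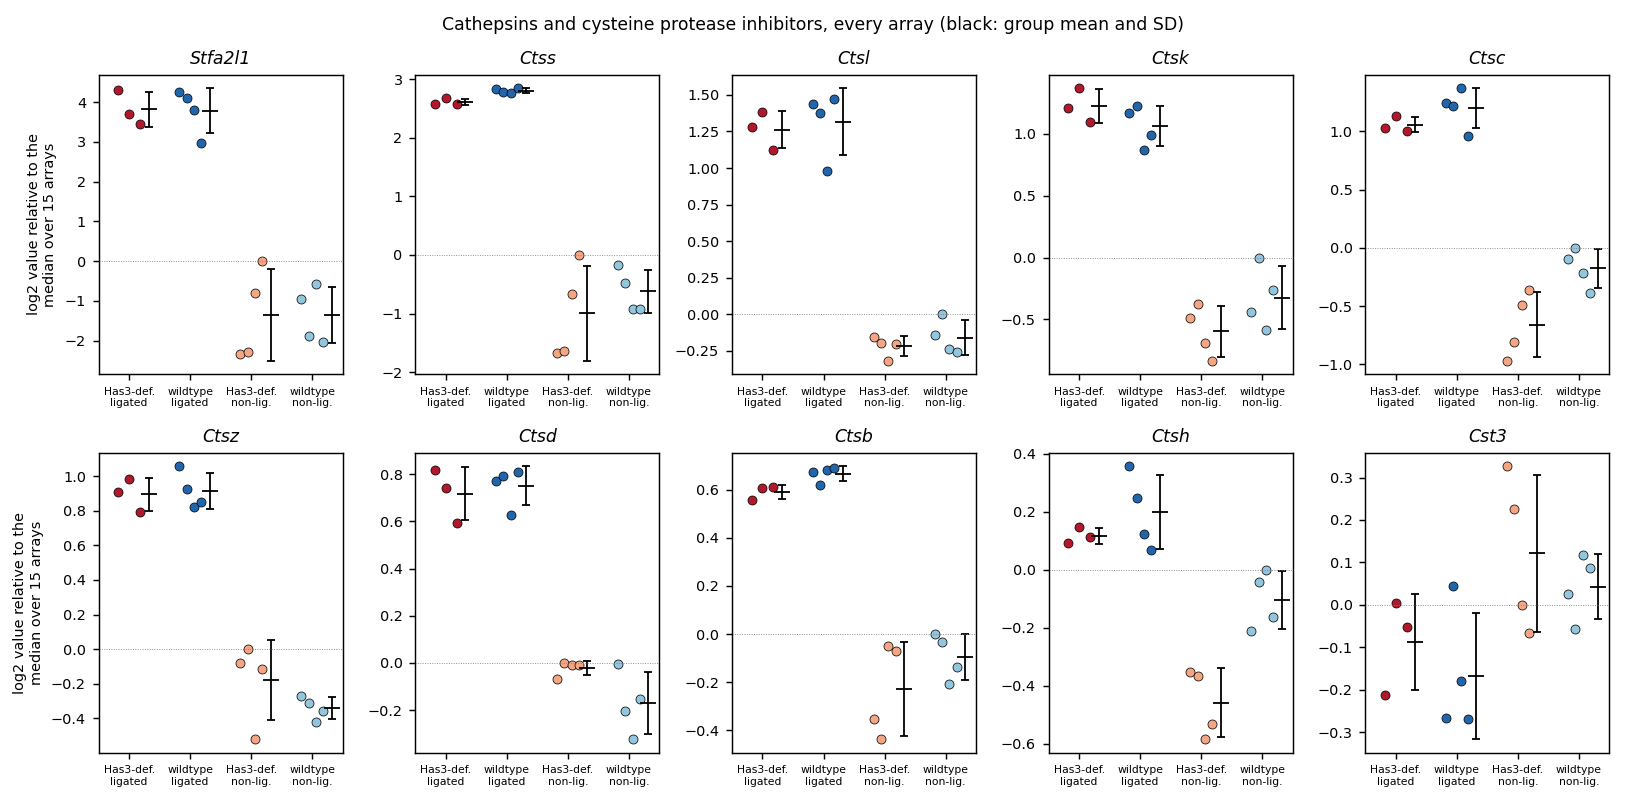
Log2 value of each gene relative to its median over the 15 arrays (vertical axes differ between panels) in the 4 groups. Each point is an array, and the black mark with its bar is the group mean and standard deviation (n = 3 for Has3-deficient ligated, n = 4 for the others). Ligated arrays lie above all non-ligated arrays for every gene but Cst3, whose groups overlap.

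Stfa2l1, a member of the stefin A family of cytosolic inhibitors, had the largest change of the 10. In Has3-deficient arteries its level was 4.31, 3.70 and 3.45 in the ligated arrays, against -2.33, -2.29, -0.79 and 0 in the non-ligated ones. In wildtype arteries it was 4.25, 4.09, 3.81 and 2.97 in the ligated arrays, against -0.95, -1.87, -0.57 and -2.03 in the non-ligated ones. The ligated arrays of the genotypes overlap, with wildtype array 4 below all the others, and the lowest of them lies above the highest non-ligated array. The change was 5.17 ± 0.54 log2 units in Has3-deficient arteries (36.0-fold, adjusted p = 9.79e-06 with limma) and 5.14 ± 0.50 in wildtype arteries (35.2-fold, adjusted p = 3.45e-06). By size of the rise it ranked 2 of 22180 genes in Has3-deficient and 9 in wildtype arteries.

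Ctss, a protease of antigen-presenting cells that trims the invariant chain of MHC class II and stays active at neutral pH, changed most among the cathepsins. In Has3-deficient arteries its level was 2.57, 2.67 and 2.58 in the ligated arrays, against -1.67, -1.64, -0.67 and 0 in the non-ligated ones. In wildtype arteries it was 2.83, 2.78, 2.76 and 2.84 in the ligated arrays, against -0.17, -0.48, -0.92 and -0.92 in the non-ligated ones. The ligated arrays lay close together, with a standard deviation of 0.06 in Has3-deficient and 0.04 in wildtype arteries, whereas the non-ligated arrays spread by 0.81 and 0.36. The rise was 3.60 ± 0.32 log2 units in Has3-deficient arteries (12.2-fold, adjusted p = 1.88e-06) and 3.43 ± 0.30 in wildtype arteries (10.8-fold, adjusted p = 1.11e-06).

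Ctsk and Ctsl, endopeptidases of which Ctsk is known as the collagenase of osteoclasts, rose by less. Ctsk stood at 1.21, 1.37 and 1.10 in the ligated Has3-deficient arrays, against -0.49, -0.37, -0.69 and -0.83 in the non-ligated ones, a rise of 1.82 ± 0.14 log2 units (3.53-fold, adjusted p = 5.1e-07). In wildtype it stood at 1.17, 1.22, 0.87 and 0.99 in ligated arrays, against -0.44, 0, -0.59 and -0.26 in non-ligated arrays, a rise of 1.39 ± 0.13 (2.61-fold, adjusted p = 2.55e-06). The ligated arrays of the genotypes overlap, and wildtype non-ligated array 2 is the highest of the non-ligated arrays. Ctsl stood at 1.28, 1.38 and 1.13 in ligated Has3-deficient arrays, against -0.16, -0.20, -0.32 and -0.20 in non-ligated ones, and at 1.44, 1.38, 0.98 and 1.48 in ligated wildtype arrays, against -0.14, 0, -0.24 and -0.26 in non-ligated ones. Its rise was 1.48 ± 0.11 log2 units in Has3-deficient and 1.48 ± 0.10 in wildtype arteries (2.79-fold in both), with wildtype ligated array 3 the lowest of the ligated arrays. In the annotation Ctsk and Ctss are neighbours on chromosome 3, with 0 other protein-coding genes between them, so these adjacent genes rose by different amounts.

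The exopeptidases rose as well. Ctsc, which removes dipeptides and is known to activate the serine proteases of neutrophil and mast cell granules, stood at 1.03, 1.13 and 1.01 in ligated Has3-deficient arrays, against -0.97, -0.81, -0.49 and -0.36 in non-ligated ones. In wildtype it stood at 1.25, 1.21, 1.37 and 0.96 in ligated arrays, against -0.10, 0, -0.22 and -0.39 in non-ligated ones. Its rise was 1.71 ± 0.14 log2 units in Has3-deficient arteries (3.28-fold, adjusted p = 7.49e-07) and 1.37 ± 0.13 in wildtype arteries (2.59-fold, adjusted p = 2.29e-06), and all 4 non-ligated Has3-deficient arrays lay below the median of the wildtype ones. Ctsz, a carboxypeptidase, had levels of 0.80 to 0.99 in ligated Has3-deficient arrays, against -0.52 to 0 in non-ligated ones, and of 0.82 to 1.06 in ligated wildtype arrays, against -0.42 to -0.27 in non-ligated ones. It rose by 1.08 ± 0.11 log2 units (2.11-fold) in Has3-deficient and by 1.25 ± 0.10 (2.39-fold) in wildtype arteries.

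Ctsh, an aminopeptidase, showed the smallest rise that passed. It stood at 0.092, 0.15 and 0.11 in ligated Has3-deficient arrays, against -0.35, -0.36, -0.58 and -0.53 in non-ligated ones, and at 0.36, 0.25, 0.13 and 0.068 in ligated wildtype arrays, against -0.21, -0.041, 0 and -0.16 in non-ligated ones. The gap between ligated and non-ligated wildtype arrays was narrow, with 0.068 the lowest ligated and 0 the highest non-ligated array. The rise was 0.57 ± 0.08 log2 units in Has3-deficient arteries (1.49-fold, adjusted p = 0.000177) and 0.30 ± 0.08 in wildtype arteries (1.23-fold, adjusted p = 0.00743).

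Ctsb, an endopeptidase that also removes dipeptides from the carboxyl end, and Ctsd, the aspartic protease, rose by less than 2-fold in both genotypes. Ctsb had levels of 0.56 to 0.61 in ligated Has3-deficient arrays, against -0.44 to -0.05 in non-ligated ones, and of 0.62 to 0.69 in ligated wildtype arrays, against -0.21 to 0 in non-ligated ones. Its rise was 0.82 ± 0.09 log2 units (1.76-fold, adjusted p = 1.27e-05) in Has3-deficient and 0.76 ± 0.08 (1.69-fold, adjusted p = 8.01e-06) in wildtype arteries. Ctsd had levels of 0.60 to 0.82 in ligated Has3-deficient arrays, against -0.067 to 0 in non-ligated ones, and of 0.63 to 0.81 in ligated wildtype arrays, against -0.32 to -0.0048 in non-ligated ones. Its rise was 0.74 ± 0.08 log2 units (1.67-fold, adjusted p = 8.14e-06) in Has3-deficient and 0.92 ± 0.07 (1.89-fold, adjusted p = 3.3e-07) in wildtype arteries.

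Cst3, which encodes cystatin C, the main secreted inhibitor of cysteine cathepsins, was the only member that did not pass with ligation. Its level was -0.21, 0.0034 and -0.05 in ligated Has3-deficient arrays, against 0.33, 0.23, -0.00082 and -0.07 in non-ligated ones, and -0.27, 0.05, -0.18 and -0.27 in ligated wildtype arrays, against 0.03, -0.06, 0.12 and 0.09 in non-ligated ones. The groups overlapped in both genotypes. The difference was -0.21 ± 0.10 log2 units in Has3-deficient arteries (95% interval -0.43 to 0.01, adjusted p = 0.198) and -0.21 ± 0.09 in wildtype arteries (-0.41 to -0.0070, adjusted p = 0.124). Without wildtype ligated array 2 the wildtype difference was -0.28 and passed (adjusted p = 0.0409). The 2 probe sets of Cst3 had differences of the same sign, -0.19 and -0.22 in Has3-deficient and -0.17 and -0.25 in wildtype arteries.

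**Figure D2:**
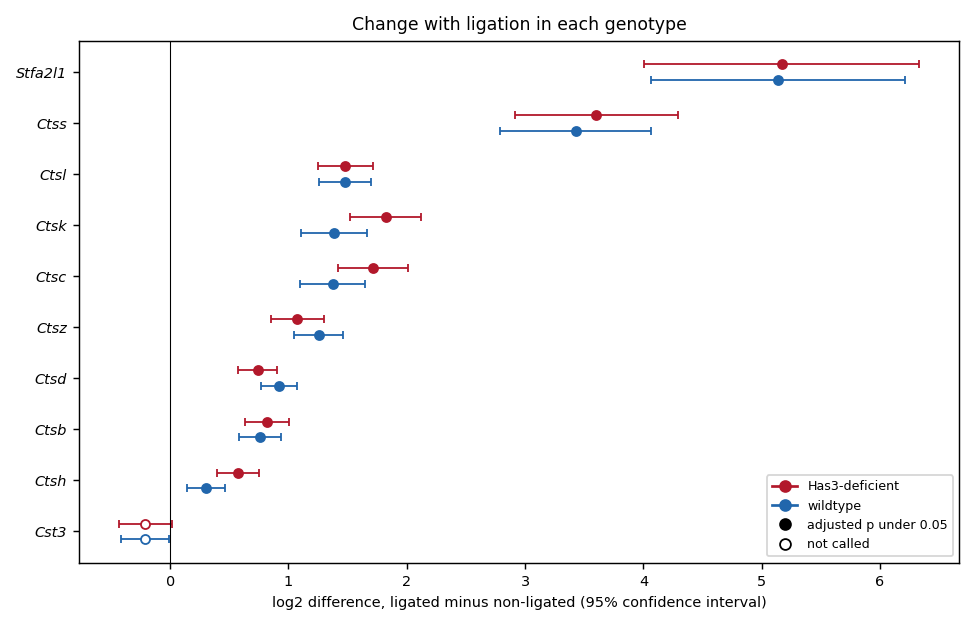
Log2 difference between ligated and non-ligated arteries for each gene in Has3-deficient (red) and wildtype (blue) arteries, with the 95% confidence interval of the limma fit. Filled points have an adjusted p under 0.05, which holds in both genotypes for every gene but Cst3, and the changes run from -0.21 (Cst3) to 5.17 (Stfa2l1).

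Set against cystatin C within each array, every protease stood higher after ligation, which follows from the changes above and is no separate result. Cystatins do not inhibit Ctsd, and other inhibitors did rise, Stfa2l1 by more than any protease here and Cstb as given below. The log2 value of Ctss minus that of Cst3 averaged 2.70 ± 0.08 (SD, n = 3) in ligated Has3-deficient arrays, against -1.11 ± 0.99 (n = 4) in non-ligated ones, and 2.97 ± 0.18 (n = 4) in ligated wildtype arrays, against -0.67 ± 0.42 (n = 4) in non-ligated ones. For Ctsh, the cathepsin that rose least, the same difference averaged 0.20 ± 0.09 in ligated Has3-deficient arrays, against -0.58 ± 0.09 in non-ligated ones, and 0.37 ± 0.18 in ligated wildtype arrays, against -0.15 ± 0.12 in non-ligated ones. Since each gene is relative to its own median, these values show unequal change and not an excess of protease over inhibitor, and they count RNA, not protein or enzyme activity.

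The rise of Stfa2l1 was larger than that of each relative in the same gene cluster. The annotation places 11 stefin A genes in a row on chromosome 16, with Stfa2l1 the second of them, and all 11 were measured. Of the other 10, 3 rose in Has3-deficient and 4 in wildtype arteries, where 10.2% and 13.2% of all genes rose, and 0 fell in either. Their changes ran from -0.26 to 1.64 log2 units in Has3-deficient and from -0.0042 to 1.53 in wildtype arteries. Cstdc4, the neighbour on the far side from Csta1, rose by 1.64 ± 0.30 log2 units in Has3-deficient and 1.53 ± 0.28 in wildtype arteries. Stfa1 rose by 1.54 ± 0.24 in Has3-deficient and 0.99 ± 0.23 in wildtype arteries, and Csta3 by 0.67 ± 0.19 in Has3-deficient and 0.65 ± 0.18 in wildtype arteries. Csta1, the neighbour on the other side, differed by -0.26 ± 0.12 in Has3-deficient and 0.03 ± 0.11 in wildtype arteries and did not pass.

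**Figure D3:**
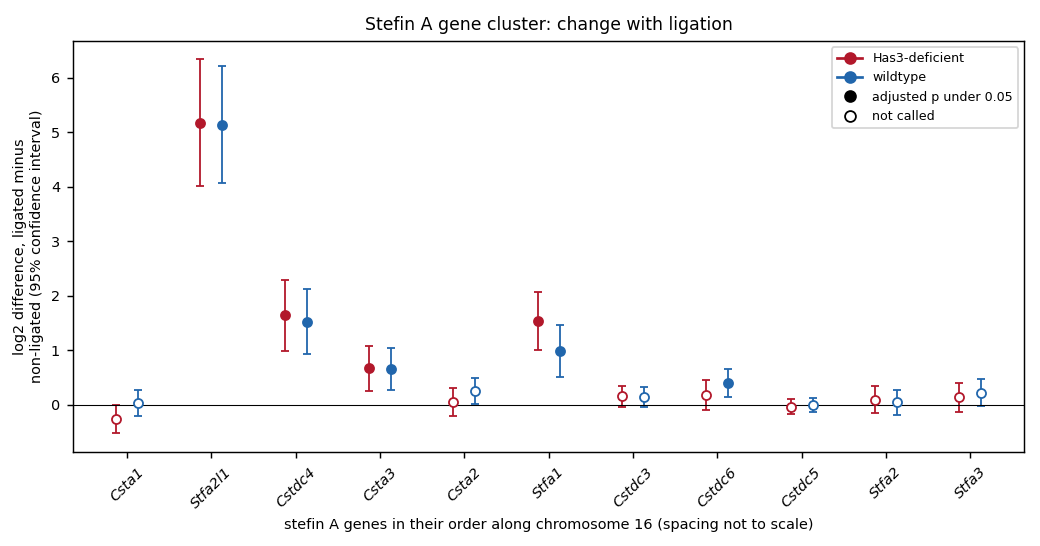
Log2 difference between ligated and non-ligated arteries for the 11 stefin A genes in their order along chromosome 16, in Has3-deficient (red) and wildtype (blue) arteries, with 95% confidence intervals and filled points at an adjusted p under 0.05. The point of Stfa2l1 is at 5.17 and 5.14, and those of the other 10 genes reach at most 1.64 and 1.53.

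Members of this cluster are close copies of each other, so a probe set for one can bind transcripts of another, and how far the probe sets tell them apart was not tested. The sequences at hand lie upstream of the genes and do not show how alike the transcripts are. The 250 bases before the start of Stfa2l1 and of Stfa2 were 89.4% identical (227 of 254 aligned columns), against 80.9% for Stfa2l1 with Stfa1, 80.5% with Stfa3 and 49.7% with the unrelated Ctss. Stfa2 differed by 0.10 ± 0.11 log2 units in Has3-deficient and 0.05 ± 0.11 in wildtype arteries, with levels from -0.08 to 0.08 in ligated Has3-deficient arrays, against -0.27 to 0.04 in non-ligated ones, and from -0.11 to 0.27 in ligated wildtype arrays, against -0.19 to 0.29 in non-ligated ones. The windows of Stfa2l1 and Stfa2 are shown because Stfa2 was the closest to Stfa2l1 of those compared while its change was not, from RefSeq on build GRCm38.p6, 5′ to 3′ along the strand of the gene. Capitals mark matches on either strand to CCAAT and to GAGGAA, the PU box bound by the myeloid factor PU.1, the motifs of those searched that occur here.
Stfa2l1 (chr16:36156561-36156810, plus strand): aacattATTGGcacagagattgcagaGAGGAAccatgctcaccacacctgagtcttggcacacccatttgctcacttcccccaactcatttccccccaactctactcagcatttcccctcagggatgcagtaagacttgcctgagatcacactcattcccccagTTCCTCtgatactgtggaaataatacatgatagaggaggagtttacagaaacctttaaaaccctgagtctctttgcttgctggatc
Stfa2 (chr16:36408364-36408613, minus strand): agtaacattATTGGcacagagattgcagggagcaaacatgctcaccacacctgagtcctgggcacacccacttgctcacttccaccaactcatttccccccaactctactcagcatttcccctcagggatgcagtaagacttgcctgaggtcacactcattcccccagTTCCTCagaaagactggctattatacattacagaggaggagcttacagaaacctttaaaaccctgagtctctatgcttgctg
The pair shares the inverted CCAAT match (ATTGG) and an inverted PU box (TTCCTC), while the forward PU box appears in Stfa2l1 alone.

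Upstream windows were held by the reference table for 8 of the 10 genes, the exceptions being Ctsb and Ctsh. Motifs were searched on both strands of the 250 bases before each start and set against 27025 genes with a window of the same length. The PU box GAGGAA occurred in 5 of 8 windows (23.1% of all genes), the GC box GGGCGG in 5 (32.9%), CCAAT in 2 (34.5%), TATAAA in 1 (12.97%), the AP-1 site TGANTCA in 0 (6.87%) and CACGTG, the E-box that factors of the TFEB and MITF family bind in lysosomal genes, in 2 (6.05%). The matches to different motifs did not overlap in the windows shown. Those with CACGTG were Ctsl with a single match and Ctsd with 2, while the PU box was in Cst3, Ctsk, Ctss, Ctsc and Stfa2l1, that is, in Cst3, which did not pass, as well as in genes that rose. A match describes letters only. Ctss is shown as the cathepsin that rose most, Ctsd for its pair of E-boxes and Cst3 as the gene that did not pass, with all motif matches in capitals.
Ctss (chr3:95526536-95526785, plus strand): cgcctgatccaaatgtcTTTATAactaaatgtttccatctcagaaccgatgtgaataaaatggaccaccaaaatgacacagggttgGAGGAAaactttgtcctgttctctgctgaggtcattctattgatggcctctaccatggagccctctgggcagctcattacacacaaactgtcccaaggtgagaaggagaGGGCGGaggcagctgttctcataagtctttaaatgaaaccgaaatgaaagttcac
Ctsd (chr7:142387828-142388077, minus strand): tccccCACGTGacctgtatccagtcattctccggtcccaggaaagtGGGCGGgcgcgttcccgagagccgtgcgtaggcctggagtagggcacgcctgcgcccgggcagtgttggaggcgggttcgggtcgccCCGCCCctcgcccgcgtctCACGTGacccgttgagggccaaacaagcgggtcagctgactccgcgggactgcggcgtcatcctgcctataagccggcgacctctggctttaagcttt
Cst3 (chr2:148875513-148875762, minus strand): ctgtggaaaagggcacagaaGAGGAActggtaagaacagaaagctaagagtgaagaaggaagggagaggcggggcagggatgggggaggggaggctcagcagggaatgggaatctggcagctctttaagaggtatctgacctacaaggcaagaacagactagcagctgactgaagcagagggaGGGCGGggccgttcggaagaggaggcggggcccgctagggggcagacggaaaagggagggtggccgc

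Genotype made no difference that passed for any of the 10 genes in ligated arteries, where 0% of all genes tested passed (limma, 910 genes with an unadjusted p under 0.05, none of them a member). The differences, Has3-deficient minus wildtype, lay between -0.19 (Ctss) and 0.16 (Ctsk) log2 units, 3 of 10 were positive, and their median was -0.04, against -0.0067 over all genes. For Ctsl the difference was -0.05 with a 95% interval of -0.29 to 0.18, for Ctsd -0.03 (-0.20 to 0.13) and for Ctsz -0.02 (-0.24 to 0.21), whereas for Ctss it was -0.19 (-0.88 to 0.49) and for Stfa2l1 0.04 (-1.12 to 1.20). The ligated arrays of the genotypes did not overlap for Ctsb and Ctss, both lower in each Has3-deficient array than in any wildtype array, a pattern that 3.35% of all genes showed downward, 3.55% upward and 6.9% either way. With quantile normalization the difference of Ctsb was 0.0064 and that of Ctss -0.06. For Ctss the fit pools the wide spread of non-ligated arrays with the narrow spread of ligated ones. Fitted on the ligated arrays alone, Ctss did not pass either (adjusted p = 0.729).

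In non-ligated arteries 0 of 10 genes passed, where 0.0857% of all genes did, 0.00902% upward and 0.0766% downward (19 genes with limma, 2979 at an unadjusted p under 0.05, among them 2 members). These members were Ctsh and Ctsc. Ctsh was lower in all 4 Has3-deficient arrays, with the levels given above, than in any of the 4 wildtype arrays, a pattern that 3.82% of all genes showed downward, 2.4% upward and 6.22% either way. The difference was -0.35 ± 0.08 log2 units (95% interval -0.52 to -0.19, unadjusted p = 0.00038, adjusted p = 0.0795). Ctsc differed by -0.48 ± 0.13 (-0.76 to -0.21, unadjusted p = 0.00215, adjusted p = 0.125), with overlapping arrays. Without Has3-deficient non-ligated array 4 the difference of Ctsc was -0.58 and passed (adjusted p = 0.0449). Without the 5 arrays high in neuron or fat markers Ctss differed by -0.72 and passed (adjusted p = 0.0362), a setting that leaves 1 Has3-deficient and 2 wildtype arrays. The other differences ran from -0.37 (Ctss) to 0.16 (Ctsz), and 4 of 10 were positive.

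**Figure D4:**
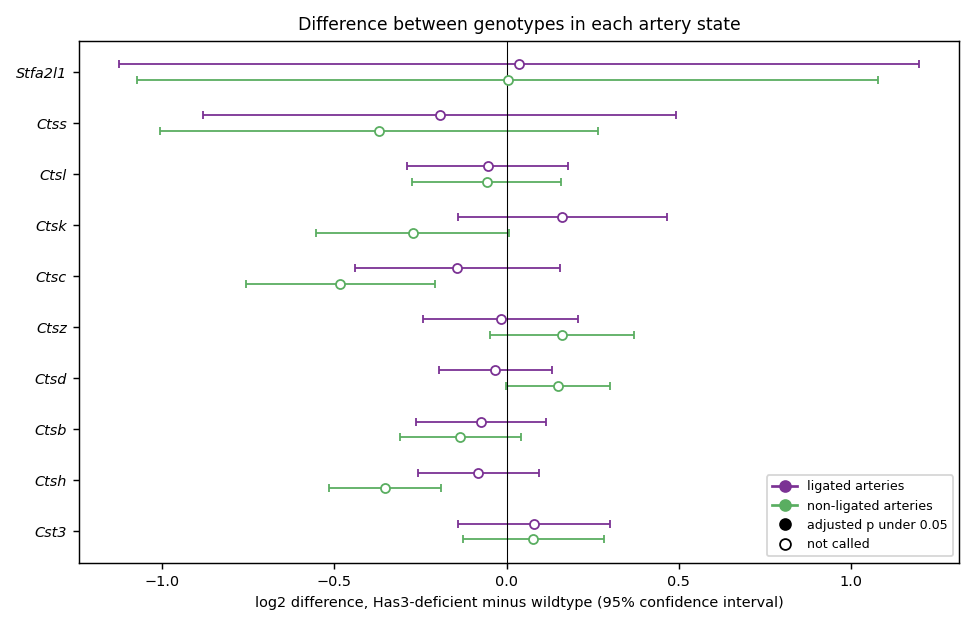
Log2 difference between Has3-deficient and wildtype arteries for each gene, in ligated (purple) and non-ligated (green) arteries, with 95% confidence intervals of the limma fit. All points are open, since none had an adjusted p under 0.05, and among non-ligated arteries the intervals of Ctsc (-0.76 to -0.21) and Ctsh (-0.52 to -0.19) lie below 0.

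The ligation responses of the genotypes did not differ by a test that passed either. The difference of the responses, Has3-deficient minus wildtype, was largest for Ctsk (0.43 ± 0.19 log2 units, adjusted p = 0.600), Ctsc (0.34 ± 0.19, adjusted p = 0.673) and Ctsh (0.27 ± 0.11, adjusted p = 0.568), and 0% of all genes passed. For Stfa2l1 it was 0.03 ± 0.74, for Ctss 0.18 ± 0.44 and for Ctsl 0.0034 ± 0.15. All these differences of responses share their arrays with the comparisons above.

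Within the non-ligated Has3-deficient group the arrays split for every member but Ctsd, though not in one direction. Arrays 1 and 2 were lower than arrays 3 and 4 for Stfa2l1, Ctss, Ctsc and Ctsb, and higher for Ctsh, Ctsk, Ctsl, Ctsz and Cst3. This division was picked after the values were seen. The share of all genes that show it was not computed, so it is not a result about the members. For Ctsb they stood at -0.35, -0.44, -0.05 and -0.07 in the order of their numbers, and for Ctsl arrays 2 and 4 were almost level (-0.198 and -0.201). Macrophage markers, a list of 12 genes such as Adgre1 and Csf1r, had mean levels of -1.13, -0.79, -0.56 and -0.14 in these arrays, in the order of their numbers. Neuron markers were also uneven in this group, with mean levels from -0.11 to 4.46 over its arrays, and array 3 the highest. What these markers contribute to the split was not tested.

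Macrophage markers and part of the neutrophil markers rose with the cathepsins after ligation, while most mast cell markers did not pass. Of 12 macrophage markers 11 rose in Has3-deficient and 11 in wildtype arteries, and their mean level was 1.76 to 1.93 in ligated Has3-deficient arrays, against -1.13 to -0.14 in non-ligated ones, and 1.81 to 2.06 in ligated wildtype arrays, against -0.60 to -0.17 in non-ligated ones. The summed level of the list was 21.1 to 23.1 in ligated Has3-deficient arrays, against -13.6 to -1.72 in non-ligated ones, and 21.8 to 24.8 in ligated wildtype arrays, against -7.17 to -2.01 in non-ligated ones. Of 12 neutrophil markers 7 rose in each genotype, among them S100a8 (3.58 log2 units in Has3-deficient and 4.06 in wildtype arteries) and Cxcr2 (3.83 and 3.56). Camp, a granule gene of immature neutrophils, fell by 0.20 in Has3-deficient arteries and was at -0.02 in wildtype ones without passing. The summed level of the neutrophil list was 14.3 to 18.1 in ligated Has3-deficient arrays, against -6.71 to -1.19 in non-ligated ones, and 12.1 to 19.7 in ligated wildtype arrays, against -8.15 to -1.001 in non-ligated ones. Of 7 osteoclast markers 4 rose in Has3-deficient and 5 in wildtype arteries, and smooth muscle markers fell, 8 of 8 in Has3-deficient and 7 of 8 in wildtype arteries. Of 8 fibroblast markers 2 rose and 3 fell in Has3-deficient and 1 rose and 5 fell in wildtype arteries, and of 8 endothelial markers 3 rose and 2 fell in Has3-deficient and 3 rose and 3 fell in wildtype arteries. Of 6 mast cell markers 1 rose and of 8 skeletal muscle markers 1 fell in each genotype. Fat markers fell for 3 of 7 in wildtype and 0 in Has3-deficient arteries, and 0 of 8 neuron and 0 of 7 keratinocyte markers passed. Beside these counts, 10.2% of all genes rose and 8.08% fell in Has3-deficient and 13.2% rose and 14.6% fell in wildtype arteries. In whole arteries, more cells of a type and more RNA per cell cannot be told apart, and the part of these cell types in the rise of the cathepsins was not tested.

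The genes whose pattern over the 15 arrays was most like that of each member, by Pearson correlation among named genes outside the 10, are a description, since ligated and non-ligated arrays form separate clusters that make most correlations high. For Ctss it was Cd68, a lysosomal membrane protein of macrophages (r = 0.997; 0.517 over the 7 ligated and 0.968 over the 8 non-ligated arrays). For Ctsk it was Man2b1, a lysosomal mannosidase (0.986; 0.718 and 0.855), and for Ctsh it was Tpp1, a lysosomal peptidase (0.965; 0.810 and 0.914). For Stfa2l1 it was Twf2 (0.994; 0.855 and 0.931), for Ctsc Ly86 (0.995; 0.823 and 0.984) and for Cst3 Smim5 (0.945; 0.871 and 0.961). Ctsb was most like Clec4a1 (0.991; 0.721 and 0.891), Ctsd like Mir692-1 (0.986; 0.609 and 0.781), Ctsl like Stap1 (0.993; 0.884 and 0.553) and Ctsz like Arhgap45 (0.989; 0.344 and 0.916).

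Other proteases of the lysosome changed in part. Of 17 further cathepsins and lysosomal proteases 5 rose and 1 fell in Has3-deficient arteries and 6 rose and 2 fell in wildtype ones. Among all genes 10.2% rose and 8.08% fell in Has3-deficient and 13.2% rose and 14.6% fell in wildtype arteries. The median change of the list was 0.04 log2 units in each genotype. Of these 17 genes 8 are cathepsins known from the mouse placenta (Ctsj, Ctsm, Ctsq, Ctsr, Cts3, Cts6, Cts7 and Cts8), of which 0 passed, with differences of -0.07 to 0.19 log2 units in Has3-deficient and -0.20 to 0.09 in wildtype arteries. Of the other 9 genes 5 rose and 1 fell in Has3-deficient and 6 rose and 2 fell in wildtype arteries, with medians of 0.42 and 0.63. Lgmn, the asparaginyl endopeptidase that processes cathepsins to their mature chains, rose by 1.43 ± 0.09 log2 units in Has3-deficient and 1.69 ± 0.09 in wildtype arteries. Napsa, an aspartic protease, rose by 1.75 ± 0.11 and 1.43 ± 0.10, and Ctsa, a carboxypeptidase that protects lysosomal glycosidases, by 0.73 ± 0.06 and 0.73 ± 0.06. Ctse, another aspartic protease, rose in wildtype (0.71 ± 0.25, adjusted p = 0.0454, with overlapping arrays) and was at 0.69 ± 0.27 in Has3-deficient arteries (adjusted p = 0.0955).

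A pair of cysteine cathepsins went the other way. Ctsf fell by 0.55 ± 0.15 log2 units in Has3-deficient arteries (adjusted p = 0.0195) and by 0.88 ± 0.14 in wildtype arteries (adjusted p = 0.000262). Ctso fell by 0.35 ± 0.08 in wildtype arteries (adjusted p = 0.00383) and was at 0.0087 ± 0.09 in Has3-deficient ones, and the difference of these responses did not pass (0.36 ± 0.12, adjusted p = 0.503).

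Among the other inhibitors Cstb, the stefin B of most cells, rose by 1.39 ± 0.13 log2 units in Has3-deficient and 1.53 ± 0.12 in wildtype arteries, close to the changes of Ctsl. The other cystatins and stefins measured were 23, Cstb and the 10 cluster genes included. Of these, 4 rose in Has3-deficient and 6 in wildtype arteries and 0 fell, with medians of 0.10 and 0.15. Over all genes 10.2% rose in Has3-deficient and 13.2% in wildtype arteries. Of 5 inhibitors of other families 2 rose in each genotype, with a median of 0.53 in both. These were Serpinb1a, an inhibitor of neutrophil serine proteases (1.07 ± 0.19 in Has3-deficient and 0.91 ± 0.18 in wildtype arteries), and Ctla2a, a relative of the cathepsin propeptide that inhibits Ctsl (0.78 ± 0.25 and 0.92 ± 0.23).

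The list of genes that carry enzymes to the lysosome and acidify it rose in part. It also holds transcription factors, other membrane proteins of the lysosome and a channel, which the counts and medians include. Of 20 measured, 8 rose and 1 fell in Has3-deficient and 12 rose and 1 fell in wildtype arteries, with medians of 0.31 and 0.42. The shares over all genes were 10.2% rising and 8.08% falling in Has3-deficient and 13.2% and 14.6% in wildtype arteries. Atp6v0d2, a proton pump subunit of macrophages and osteoclasts, rose by 3.14 ± 0.40 log2 units in Has3-deficient and 3.22 ± 0.37 in wildtype arteries. The mannose 6-phosphate receptors, which sort cathepsins to the lysosome, rose as well, Igf2r by 0.999 ± 0.06 and 1.13 ± 0.06 and M6pr by 0.79 ± 0.07 and 0.57 ± 0.06. Atp6v1b2, another pump subunit, was at 0.48 ± 0.32 in Has3-deficient arteries without passing (adjusted p = 0.367) and rose by 0.85 ± 0.30 in wildtype ones (adjusted p = 0.0485), while Sort1, a sorting receptor, fell by 0.33 ± 0.07 and 0.45 ± 0.07.

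Of 8 other genes of lysosomal breakdown and lipid export measured, 7 rose in each genotype, with medians of 0.79 log2 units in Has3-deficient and 0.87 in wildtype arteries. Of all genes 10.2% rose in Has3-deficient and 13.2% in wildtype arteries. The 7 included Lipa, the acid lipase (1.58 ± 0.14 in Has3-deficient and 1.30 ± 0.13 in wildtype arteries), Gusb (1.10 ± 0.10 and 1.06 ± 0.09), Psap (0.83 ± 0.06 and 0.98 ± 0.05) and Man2b1 (0.92 ± 0.09 and 0.71 ± 0.08). Of 6 genes measured of matrix proteins that cathepsins act on and of MHC class II, 5 rose in each genotype. MHC class II is represented by H2-Aa, a chain of the complex itself, while Cd74, the invariant chain that Ctss trims, was not measured. The medians of the 6 genes were 0.995 in Has3-deficient and 1.21 in wildtype arteries. Those that rose included Col1a1 (1.13 ± 0.11 and 1.55 ± 0.10), Col3a1 (1.07 ± 0.14 and 1.40 ± 0.13), Col1a2 (0.92 ± 0.13 and 1.03 ± 0.12) and H2-Aa (1.93 ± 0.19 and 1.55 ± 0.18). The sixth, Eln, which encodes elastin, did not pass, at -0.32 ± 0.24 in Has3-deficient (adjusted p = 0.424) and -0.21 ± 0.22 in wildtype arteries (adjusted p = 0.563), with overlapping arrays. In none of these 6 lists did any gene differ between genotypes in ligated or in non-ligated arteries by an adjusted p under 0.05.

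**Figure D5:**
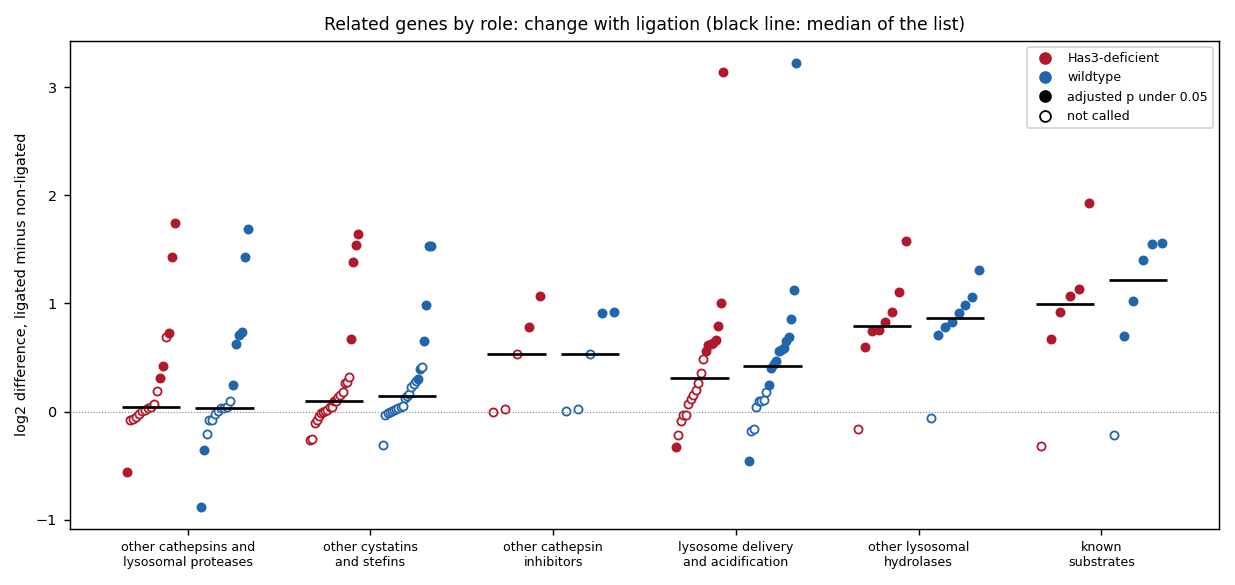
Log2 difference between ligated and non-ligated arteries for genes related by role, in Has3-deficient (red) and wildtype (blue) arteries. The list labelled known substrates also holds H2-Aa, a chain of MHC class II that is not the invariant chain. The list labelled lysosome delivery and acidification also holds transcription factors, other membrane proteins of the lysosome and a channel. Each point is a gene, filled at an adjusted p under 0.05, and the black lines are list medians. These lie at 0.79 and 0.87 for the list labelled other lysosomal hydrolases, which holds genes of lysosomal breakdown and lipid export. They lie at 0.04 in both genotypes for the other cathepsins, a list in which 8 of 17 genes are placental cathepsins.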

How the data were processed

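The authors deposited log2 values of 33793 probe sets in 15 arrays, made per the labels' protocols from 100 ng of total RNA with a whole-transcript kit and biotin labelling. In the deposited log2 table every probe set has a median of 0 over the arrays. The log base was taken as 2 from the size of the values, and fold changes rest on that; of the software, the normalization between arrays and the annotation build, each is not given in the sources used here. Array medians lay within 0.0167 of 0. The number of arrays limits precision.

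Gene names came from the platform annotation, updated to GRCm38.p6 symbols. Of the probe sets 23521 carried 1 symbol, 1814 several and 8458 were unlisted; the mean was used for 1082 genes with several probe sets. The 4 groups were fitted in 1 model with limma 3.58.1 in R 4.3.3 (11 residual and 2.69 prior degrees of freedom), and p-values were Benjamini-Hochberg adjusted over 22180 genes. The fit was tested on simulated data. Standard errors and 95% intervals are those of the fit. Members and lists (88 related genes in 6 lists, of which 79 were measured, and 11 marker lists) were chosen with earlier results of these data known. By rule the text names all members, up to 4 passing genes per related list and direction with the largest ligation change, and the gene most correlated with each member. Stfa2, Csta1, Eln, the placental cathepsins and the markers were named after their values were seen.

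Alternatives were quantile normalization, array weights, only the groups compared, a replicate block, the probe set of largest variance, a robust prior and leaving out each array. Leaving out together 5 non-ligated arrays high in neuron or fat markers was chosen after seeing the data.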

Additional observations from a re-analysis of the deposited data

Results flagged for a closer look

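Ctsd in Has3-deficient non-ligated array 1 stood at -0.067 log2 units, apart from the other 3 arrays of its group, of which the nearest was at -0.0088 (gap over range 0.869). This is 1 of 30 sets of 4 arrays, 3 groups for each of the 10 genes. Chance alone gives about 1 in 20 sets, so a single such array among 30 sets is no more than chance would give. The whole group spans -0.067 to 0 log2 units, so the gap is small in size.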

How the results depend on the processing

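The 9 calls with ligation held in each genotype under all alternatives run, 15 for each gene in wildtype and 13 in Has3-deficient arteries, and 0 signs of a call turned. Changes of Stfa2l1 ran from 4.60 to 6.11 log2 units in Has3-deficient and 4.36 to 5.41 in wildtype arteries, and those of Ctss from 2.96 to 4.25 and 2.84 to 3.72, lowest with quantile normalization. The weakest call was Ctsh in wildtype, with an adjusted p of up to 0.0443. Leaving out each array in turn gave 9 to 10 genes called with ligation in wildtype, 9 in Has3-deficient arteries, 0 to 1 for genotype in non-ligated arteries, 0 for genotype in ligated arteries and 0 for the difference of responses. Without the 5 non-ligated arrays high in neuron or fat markers, 1 gene was called between genotypes in non-ligated arteries, Ctss (-0.72, adjusted p = 0.0362), where the Has3-deficient group has 1 array left, assumed to vary like the other groups. The cause was not tested. With a replicate block 9 genes were called with ligation in wildtype, 0 between genotypes in non-ligated arteries and 0 for the difference of responses. The main fit has no block, because the labels do not say that equal numbers in different groups mark the same mouse. The deviations of same-numbered arrays correlated by 0.0157 to 0.156 in wildtype and by -0.413 to -0.165 between non-ligated genotypes. These values cannot decide whether ligated and non-ligated wildtype arrays are paired, since differently numbered arrays were not compared. The arrays of different genotypes come from different mice. No block was fitted for the other comparisons, which share 1 number. Over all genes 5381 to 6773 passed with ligation in wildtype, 2785 to 4946 in Has3-deficient arteries and 0 to 280 between genotypes in non-ligated arteries. Signal over background cannot be judged from centred values.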
